A study of Capra hircus with 13 samples.

Results

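The mRNA decay machinery was followed in goat (*Capra hircus*) oocytes and embryos as 45 genes, chosen by name for their part in removing mRNA. They are the 11 subunits of the CCR4-NOT complex, 3 other deadenylase genes, 5 decapping genes, 2 5′-3′ exonucleases, 10 exosome genes, the 7 genes of the cytoplasmic LSM ring and 7 genes of nonsense-mediated decay. All 45 were listed in the 5 deposited expression tables, out of 18138 genes listed in all of them.

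Most mRNA decay in the cytoplasm starts with shortening of the poly(A) tail. CCR4-NOT does most of this work, PAN2-PAN3 acts on long tails, and PARN is a further poly(A)-specific ribonuclease. The deadenylated end is then bound by the LSM1 to LSM7 ring, DCP2 removes the cap with the help of DCP1 and EDC proteins, and XRN1 degrades the body from the 5′ end. Alternatively the exosome, a barrel of 9 core proteins with the nucleases DIS3 and EXOSC10, degrades it from the 3′ end. Nonsense-mediated decay uses the helicase UPF1 and its partners to feed faulty transcripts into the same enzymes. In early embryos these pathways clear the mRNA that the oocyte stored before fertilization, and YTHDF2, a reader of m6A-marked mRNA, is known to recruit CCR4-NOT.

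Untreated material gave 9 RNA-seq libraries, 3 of mature oocytes arrested in metaphase II (MII), 3 of 4-cell and 3 of 8-cell stage embryos. Another 4 libraries came from 8-cell stage embryos that had been injected as zygotes 8 h after in vitro fertilization (IVF), 2 with a commercial universal negative control (NC) siRNA, whose dose is not given in the sources used here, and 2 with siRNAs against *YTHDF2* at 20 µM. The titles of the NC libraries read WT, while their treatment label reads NC siRNA injection. Each injected library pooled whole embryos. All libraries were made by Smart-seq2, which copies polyadenylated RNA, so a change in the amount of a transcript and a change in its poly(A) tail cannot be told apart here. In such bulk samples fewer cells of a type and less RNA per cell cannot be told apart either. The untreated libraries were taken from earlier studies, the study of each library is not given, and stage and study cannot be told apart. The MII libraries listed 18858 genes, the 4-cell and 8-cell libraries 21826 and the injected libraries 27121. The part of these unlike gene lists in the comparisons with MII was not tested. No strain or donor is given in the labels.

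Values are FPKM, fragment counts scaled to the length of the gene model and to the mapped fragments of the library. The untreated totals were 26853876 to 42495116 fragments, and the values of the 45 genes rested on 0 to 27017 fragments (median 1518), with 46 of 405 values under 100 fragments. The depth of the injected libraries is unknown. Replicates correlated by *r* = 0.946 to 0.977 (MII), 0.964 to 0.978 (4-cell), 0.947 (NC) and 0.951 (*YTHDF2* siRNA) on log2(FPKM + 1) over the tested genes, but by 0.854 to 0.966 among the 8-cell libraries, where replicate 1 stood apart. Its effect is given beside the counts. Of the oocyte markers 9 of 10 were listed, and they summed to 1533 to 3449 FPKM in untreated libraries, to 753 and 480 FPKM with NC siRNA and to 974 and 1897 FPKM with *YTHDF2* siRNA. The injected groups did not overlap in this sum, and its part in the knockdown results was not tested. Of the cumulus and granulosa cell markers 9 of 10 were listed in untreated and 10 in injected libraries, with *AMH* at 0 in the 9 untreated ones. Their sum was 27.6 to 46.5 FPKM in MII, 31.3 to 43.2 in 4-cell and 55.3 to 67.4 in 8-cell libraries, 34.2 and 27.8 with NC siRNA and 65.9 and 51.5 with *YTHDF2* siRNA, and its part in the results was not tested. The sperm markers summed to at most 0.844 FPKM and the blood cell markers to at most 1.58 FPKM in untreated libraries, and to 4.65 to 26.7 and 1.81 to 4.54 FPKM in the injected ones.

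The 45 genes did not move as 1 group. A gene was called where its change on log2(FPKM + 1) exceeded 2-fold with p under 0.05 in limma before adjustment. Of the 45 genes, 42 passed the filter of a mean of 1 FPKM over the untreated libraries. *DCP1B* (at most 0.343 FPKM), *EDC4* (at most 2.74) and *SMG5* (at most 2.52) did not. At the 4-cell stage 8 of 42 were higher and 4 lower than in MII oocytes, against 16.7% higher and 6.06% lower among all 9090 tested genes. Under the rule with p adjusted over all tested genes (Benjamini-Hochberg), 8 were higher and 2 lower (all genes 15.4% and 5.09%). At the 8-cell stage 8 were higher and 4 lower (all genes 19.8% and 8.14%), and the adjusted rule gave the same counts of 8 and 4 (18.5% and 7.58%). Without 8-cell replicate 1 the 8-cell counts were 7 and 6, and without MII replicate 2 the 4-cell counts were 13 and 2. From the 4- to the 8-cell stage none was higher and 3 were lower (all genes 4.55% and 4.28%), or 0 and 1 by the adjusted rule (2.29% and 3.17%), without 8-cell replicate 1 none and 2, and without 4-cell replicate 1 none and 1. The shares of called members lay near those of all genes, so what follows concerns single genes and sub-complexes.

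Scaling bears on the counts against MII. Over all tested genes the median change against MII (log2) came to 0.29 in 4-cell and 0.37 in 8-cell embryos, with 0.072 between the embryo stages, and the tested genes held 63.7 to 65.0% of the fragments of MII libraries but 91.4 to 94.8% of those of embryo libraries. When the libraries were rescaled by median ratios, 2 members were higher and 6 lower in 4-cell embryos, with 4 higher and 7 lower in 8-cell embryos. Rescaled to the same FPKM sum, 2 were higher and 6 lower, then 4 higher and 8 lower. Between the embryo stages the counts were none higher and 3 lower by median ratios, and none and 2 with the same sum. Fold changes are therefore also given as the distance from the median of all tested genes. Of the 42 genes, 14 were higher in every embryo library than in every MII library at the 4-cell stage and 5 were lower, against 37.8% and 14.1% of all genes. The counts at the 8-cell stage were again 14 and 5 (36.4% and 13.7%). Between the embryo stages 1 was higher and 9 were lower without overlap (11.6% and 16.6%). Both comparisons with MII share the same 3 oocyte libraries.

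**Figure D1:**
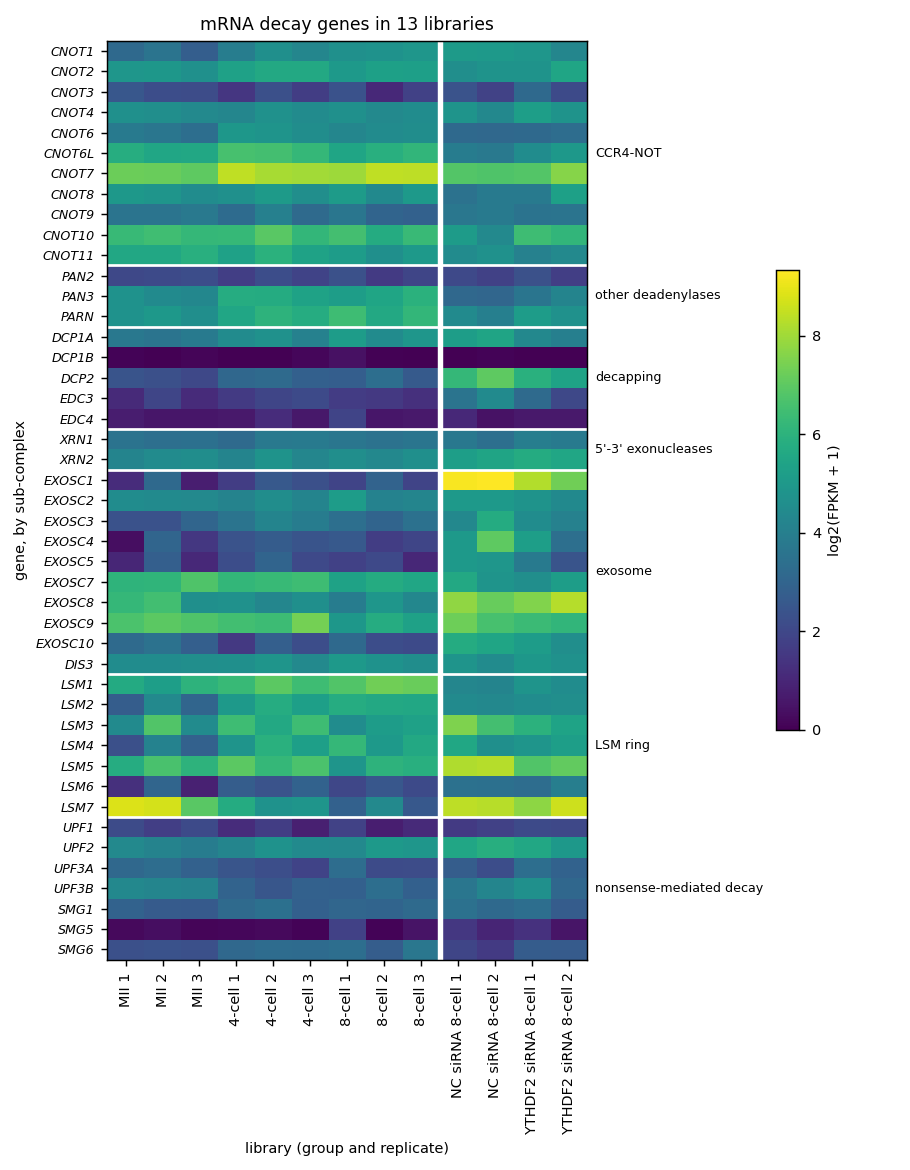
Level of each of the 45 mRNA decay genes (rows, grouped by sub-complex) in each of the 13 libraries (columns, group and replicate), coloured by log2(FPKM + 1), with a gap between the untreated and the injected libraries, which were normalized apart. *CNOT7* was bright throughout (106 to 347 FPKM), *LSM7* dimmed from 122 to 452 FPKM in MII to 4.91 to 20.0 FPKM in untreated 8-cell libraries, and *EXOSC1* was bright in the injected libraries (156 to 640.0 FPKM).

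In CCR4-NOT, the scaffold *CNOT1* and the deadenylase *CNOT7* rose at both embryo stages and the deadenylase *CNOT6* at the 4-cell stage. *CNOT1*, on which the other subunits assemble, measured 8.04, 11.1 and 5.91 FPKM in the MII oocytes, 14.3, 24.3 and 18.3 FPKM in the 4-cell and 24.9, 26.1 and 28.5 FPKM in the 8-cell stage embryos. Each embryo library was above each oocyte library. *CNOT1* rose by a log2 fold change of 1.10 in 4-cell embryos (SE 0.26, 0.82 above the median of all genes, adjusted p = 0.010) and of 1.59 in 8-cell embryos (SE 0.26, 1.23 above it, adjusted p = 0.0013). *CNOT1* at the 8-cell stage was called in all 12 alternatives run, while the 4-cell call was lost under both rescalings (0.76 and 0.61), without MII replicate 3 (0.90) and without 4-cell replicate 2 (0.92).

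*CNOT7*, a CAF1-type deadenylase, was the most abundant member in the untreated embryos. It measured 151, 144 and 129 FPKM in MII oocytes, 345, 274 and 259 at the 4-cell and 249, 347 and 333 at the 8-cell stage. Its oocyte and embryo libraries did not overlap. It rose by a log2 fold change of 1.04 (SE 0.18, adjusted p = 0.0027) and 1.12 (SE 0.18, adjusted p = 0.0014), each 0.75 above the median of all genes. The call was lost under both rescalings for 4-cell (0.67 and 0.50) and 8-cell embryos (0.74 and 0.69), and for 4-cell embryos also without MII replicate 3 (0.98) or 4-cell replicate 1 (0.92). Its paralog *CNOT8* lay at 20.4 to 33.5 FPKM in the 9 untreated libraries and was not called.

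The CCR4-type deadenylases behaved unequally. *CNOT6* went from 13.4, 11.7 and 9.38 FPKM in MII to 29.8, 27.6 and 22.7 at the 4-cell stage, all above the oocytes, and this rise was called (log2 fold change 1.15, SE 0.20, 0.87 above the median of all genes, adjusted p = 0.0025), although not under rescaling (0.80 and 0.65). Its 8-cell values of 18.6, 21.8 and 22.9 FPKM gave 0.83 (SE 0.20, adjusted p = 0.0094), less than 2-fold. *CNOT6L* measured 55.8, 44.8 and 47.4 FPKM, then 97.0, 92.6 and 72.4, then 43.5, 57.4 and 69.5. Its 4-cell libraries stood above the oocytes by 0.81 (SE 0.21, adjusted p = 0.017) while the 8-cell libraries lay below every 4-cell library and overlapped MII (0.18 against MII, adjusted p = 0.53), and that value turned to -0.19 and -0.24 under the rescalings. *CNOT6* and *CNOT6L* are paralogs, and how reads shared between such genes were dropped by the unique mapping is not known.

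The remaining subunits were not called. *CNOT2*, of the NOT module, measured 28.9, 29.2 and 24.6 FPKM in MII, 39.5, 48.2 and 48.8 at the 4-cell and 32.4, 38.4 and 37.1 at the 8-cell stage, above the oocytes at both stages but by less than 2-fold (log2 fold change 0.70, adjusted p = 0.011, and 0.37, adjusted p = 0.11, the latter turning to -0.041 with the same FPKM sum). *CNOT10* and *CNOT11* form the N-terminal module with CNOT1. *CNOT10* measured 76.2, 88.3 and 73.3 FPKM, 75.0, 120.2 and 71.1, and 91.4, 52.3 and 78.2 in the same order, with overlapping libraries and log2 fold changes of 0.12 and -0.13 (adjusted p = 0.755 and 0.72). *CNOT11* measured 46.7, 47.7 and 58.0 FPKM in MII, 39.8, 61.2 and 40.7 at the 4-cell and 34.6, 23.9 and 31.1 at the 8-cell stage. Its 8-cell libraries all lay below the oocytes, at -0.76 (SE 0.22, adjusted p = 0.024), which passed 2-fold under both rescalings (-1.13 and -1.17). The NOT subunit *CNOT3*, the ubiquitin ligase *CNOT4* and *CNOT9*, a surface for adaptors, were not called, with values between 1.11 and 25.5 FPKM. The median change of the 11 genes was 0.16 below that of all genes at the 4-cell and 0.29 below at the 8-cell stage, where 5 and 4 of 11 lay above the median of all genes. Leaving out 4-cell replicate 2 gave -0.31 and leaving out 4-cell replicate 3 gave -0.045 in 4-cell embryos. The 8-cell value was -0.18 when MII replicate 1 was left out. With no filter on low values the 4-cell value was 0.10 above.

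Of the other deadenylases, *PAN3* and *PARN* rose and *PAN2* did not pass the test. *PAN3*, the adaptor that brings PAN2 to the tail, measured 25.7, 20.9 and 19.1 FPKM in MII, 53.2, 52.4 and 40.4 at the 4-cell and 35.2, 43.2 and 60.9 at the 8-cell stage (log2 fold change 1.12, adjusted p = 0.0061, and 1.03, adjusted p = 0.0073; SE 0.23). *PARN* measured 25.7, 30.4 and 23.3 FPKM, then 44.9, 64.2 and 53.7, then 84.1, 48.1 and 70.4 (1.0, adjusted p = 0.011, and 1.29, adjusted p = 0.0025; SE 0.23). The oocyte libraries were below the embryo libraries for both genes. The catalytic *PAN2* stayed between 2.02 and 3.98 FPKM over the 9 libraries, below *PAN3* in each of them. Above the median of all genes, *PAN3* moved by 0.83 and 0.66 and *PARN* by 0.72 and 0.92. Under the rescalings neither was called, at the 4-cell (*PAN3* 0.75 and 0.59, *PARN* 0.64 and 0.48) or the 8-cell stage (0.66 and 0.61, 0.92 and 0.88). The *PAN3* call at the 8-cell stage was also lost without MII replicate 2 (0.998), MII replicate 3 (0.94) or 8-cell replicate 3 (0.82), and the *PARN* call at the 4-cell stage without MII replicate 1 (0.99), MII replicate 3 (0.92) or 4-cell replicate 2 (0.88).

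Of the decapping genes *DCP1A*, the activator of DCP2, rose by the 8-cell stage. It measured 12.4, 10.9 and 12.9 FPKM in MII, 21.7, 25.4 and 16.3 at the 4-cell and 34.5, 21.4 and 29.1 at the 8-cell stage. All embryo libraries were above the oocytes, by 0.74 (SE 0.23, adjusted p = 0.036) and 1.15 (SE 0.23, adjusted p = 0.0041), or 0.78 above the median of all genes at the 8-cell stage. The 8-cell call was lost under the rescalings (0.78 and 0.75) and narrowly without 8-cell replicate 1 (0.996). The decapping enzyme *DCP2* was at 4.38, 3.84 and 3.07 FPKM, then 7.57, 8.38 and 6.18, then 5.83, 9.34 and 5.28. Its embryo libraries also all lay above the oocytes, with 0.82 (SE 0.25, adjusted p = 0.035) and 0.69 (SE 0.25, adjusted p = 0.057), below 2-fold. The enhancer *EDC3* stayed between 1.17 and 3.30 FPKM. The homolog of *DCP1A*, *DCP1B*, rested on 0 to 18 fragments per library, so of the DCP1 pair *DCP1A* alone was measured above 1 FPKM. The 3 tested decapping genes had a median change 0.46 above that of all genes at the 4-cell and 0.32 above at the 8-cell stage. Leaving out 8-cell replicate 2 brought the latter to 0.018, and leaving out 8-cell replicate 1 to 0.51.

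Neither exonuclease was called. *XRN1*, which acts in the cytoplasm, measured 8.35 to 13.1 FPKM over the 9 untreated libraries and the nuclear *XRN2* 17.5 to 26.5 FPKM. Their log2 fold changes lay between -0.015 and 0.14 in both comparisons with MII, with an SE of 0.21 each, or 0.14 to 0.30 below the median of all genes, and the libraries of the stages overlapped. Under the rescalings all of these changes were below 0, between -0.20 and -0.37 with median ratios and between -0.26 and -0.53 with the same FPKM sum.

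In the exosome single ring proteins fell. The ring proteins *EXOSC4* and *EXOSC5* and the cap protein *EXOSC1* were not called with all libraries. Without MII replicate 2 they were called higher at the 4-cell stage (1.58, 1.39 and 1.21). *EXOSC9* measured 103, 123 and 108 FPKM in MII, 89.6, 83.8 and 165 at the 4-cell and 29.4, 53.2 and 39.4 at the 8-cell stage. The 8-cell libraries lay below all others, at -1.47 from MII (SE 0.29, 1.84 below the median of all genes, adjusted p = 0.0037) and at -1.42 from 4-cell embryos (SE 0.29, adjusted p = 0.021). Both unadjusted calls held in all 12 alternatives. The adjusted call held in all 12 against MII and in 9 against 4-cell embryos, where it was lost without 4-cell replicate 1, 4-cell replicate 3 or 8-cell replicate 3 (adjusted p up to 0.063). *EXOSC8* measured 73.2, 90.1 and 23.8 FPKM in MII, 25.1, 18.7 and 23.9 at the 4-cell and 14.1, 28.9 and 18.9 at the 8-cell stage. MII replicate 3 overlapped the embryos and the other oocyte libraries stood above them. Its log2 fold change of -1.24 in 4-cell embryos had an adjusted p = 0.064 (SE 0.45), that of -1.41 in 8-cell embryos an adjusted p = 0.035 (SE 0.45). The 4-cell call was lost without MII replicate 1 (-1.03), MII replicate 2 (-0.88) or 4-cell replicate 2 (-1.12), and the unadjusted 8-cell call held in all 12 alternatives, the adjusted one in 6 of them (adjusted p up to 0.12). *EXOSC7*, another ring protein, went from 66.0, 67.8 and 107 FPKM to 40.9, 52.8 and 45.2 at the 8-cell stage, below 2-fold (-0.75, SE 0.21, adjusted p = 0.020) but past it under both rescalings (-1.13 and -1.17).

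The cap proteins and nucleases of the exosome did not move as 1 group. *EXOSC3*, a cap protein, rose from 4.12, 4.09 and 7.33 FPKM in MII to 11.1, 17.4 and 13.9 at the 4-cell stage (1.31, SE 0.27, 1.03 above the median of all genes, adjusted p = 0.0060), and this was not called under the rescalings (0.98 and 0.84). At the 8-cell stage it was at 9.71, 7.0 and 10.1 FPKM, a value that overlapped MII (0.71, adjusted p = 0.066). The nuclear nuclease *EXOSC10* fell from 8.23, 10.5 and 6.11 to 1.90, 6.08 and 3.60 FPKM by the unadjusted rule (-1.0, SE 0.40, adjusted p = 0.085), with 6.08 just below the lowest oocyte value, and lost the call without MII replicate 1 (-0.99), MII replicate 2 (-0.83), 4-cell replicate 1 (-0.68) or 4-cell replicate 3 (-1.01, with the p of limma above the threshold). Its 8-cell values were 8.06, 3.56 and 3.24 FPKM, not called in the FPKM as deposited (-0.70) and called under both rescalings (-1.04 and -1.08). *DIS3*, the nuclease at the base of the barrel, measured 20.2 to 31.2 FPKM in all 9 libraries and the cap protein *EXOSC2* 16.4 to 34.3. Summed over the 10 genes, the exosome stood at 299 to 361 FPKM in MII, 251 to 341 at the 4-cell and 164 to 200.2 at the 8-cell stage. Its median change was 0.25 and 0.35 below that of all genes, and -0.37 relative to all genes between the embryo stages, and with no filter it was 0.0085 above at the 4-cell stage. When 4-cell replicate 2 was left out the 4-cell value was -0.14. Leaving out MII replicate 1 gave -0.60 and leaving out 8-cell replicate 3 gave -0.17 in 8-cell embryos.

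**Figure D2:**
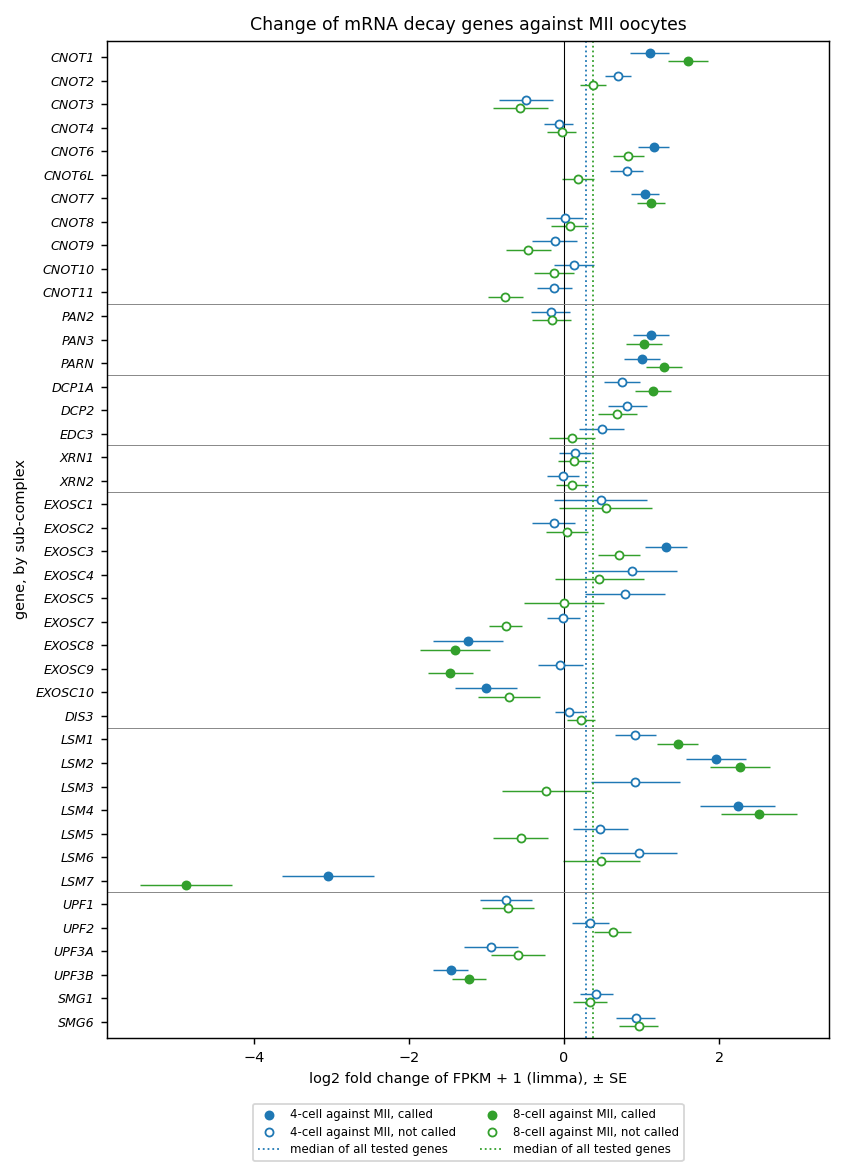
Log2 fold change (limma, on FPKM + 1) of the 42 tested genes against MII oocytes at the 4-cell (blue) and 8-cell stage (green), with bars for the SE, filled points for called genes and dotted lines for the median of all tested genes (0.29 and 0.37). *LSM7* lies farthest to the left (-3.04 and -4.88), *LSM2* and *LSM4* farthest to the right (1.96 to 2.51), and *EXOSC8* and *EXOSC9* are the called exosome genes at the 8-cell stage (-1.41 and -1.47).

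The LSM ring held both the furthest rises and the furthest fall of the machinery. LSM1 marks the cytoplasmic ring that acts in decay, and the other 6 proteins also belong to the nuclear ring of splicing. *LSM1* measured 50.9, 36.3 and 63.4 FPKM in MII, 77.3, 126 and 84.5 at the 4-cell and 111, 159 and 146 at the 8-cell stage. Oocytes were below embryos throughout, by 0.92 (SE 0.26, adjusted p = 0.025) and, called, by 1.47 (SE 0.26, 1.10 above the median of all genes, adjusted p = 0.0022). *LSM2* went from 5.79, 20.0 and 7.15 FPKM to 31.8, 54.1 and 37.0 and to 53.0, 48.3 and 47.7 (log2 fold change 1.96, adjusted p = 0.0048, and 2.27, adjusted p = 0.0018; SE 0.39). *LSM4* went from 3.86, 16.6 and 6.45 FPKM to 27.7, 59.8 and 37.4 and to 72.2, 31.5 and 48.5 (2.24, adjusted p = 0.0076, and 2.51, adjusted p = 0.0034; SE 0.49). These 3 genes at the 8-cell stage, and *LSM2* and *LSM4* at the 4-cell stage, were called in all 12 alternatives, rescaling included, with embryo libraries above every oocyte library.

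*LSM7* moved the other way. It measured 452, 423 and 122 FPKM in MII, 51.9, 26.1 and 28.4 at the 4-cell and 6.52, 20.0 and 4.91 at the 8-cell stage, on 2404 to 7166, 324 to 691 and 69 to 255 fragments. The 3 stages did not overlap. Its log2 fold change was -3.04 in 4-cell embryos (SE 0.59, adjusted p = 0.0045) and -4.88 in 8-cell embryos (SE 0.59, adjusted p = 0.00032), and both calls held in every alternative, between -5.49 and -2.72. Thus in MII *LSM7* held the highest mean of the 45 genes, and at the 8-cell stage it was 31.7-fold lower by the group means (fold of the means, without the pseudocount). From the 4- to the 8-cell stage it changed by -1.83 (SE 0.59, adjusted p = 0.091), called by the unadjusted rule and lost without 4-cell replicate 1 (-1.53), without 8-cell replicate 3 (-1.47) and with voom on fragments (-1.98).

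*LSM5* was the third gene called between the embryo stages. Its 124, 72.3 and 102 FPKM at the 4-cell stage all exceeded the 27.9, 64.8 and 57.9 FPKM at the 8-cell stage (-1.03, SE 0.35, adjusted p = 0.11). The call was lost with the same FPKM sum (-0.91) and without 4-cell replicate 1 (-0.85), 4-cell replicate 3 (-0.99) or 8-cell replicate 1 (-0.66). MII values of 53.7, 99.6 and 63.9 FPKM overlapped both. *LSM3* (21.0, 109 and 21.5 FPKM in MII, 84.8, 48.4 and 86.0 and 22.4, 35.0 and 39.3 in the embryos) and *LSM6* (0.800 to 7.27 FPKM) were not called with all libraries. Both were called higher at the 4-cell stage without MII replicate 2 (1.69 and 1.62). Without *LSM7*, the ring summed to 137, 289 and 163 FPKM in MII, 351, 364 and 354 at the 4-cell and 289, 343 and 343 at the 8-cell stage, and the sums with *LSM7* were 285 to 712, 382 to 403 and 296 to 363 FPKM.

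MII replicate 2 was high for some short genes of the ring and the exosome. It exceeded 2 times the mean of the other oocyte libraries in 8 of the 42 tested genes (13% of all tested genes), 7 of them among the 11 members with a model under 1100 bases, for example *LSM3*, *LSM4*, *LSM6* and *EXOSC1* (8.22 against 1.29 and 0.701 FPKM). Of the 42 tested genes none did so in MII replicate 1 or 3. The ring's median change moved with it, from 0.63 to 1.28 above that of all genes at the 4-cell and from 0.11 to 0.71 at the 8-cell stage without that library. Without MII replicate 3 the medians were 0.29 and -0.30. The 8-cell median was also moved by leaving out MII replicate 1 (-0.090), 8-cell replicate 1 (0.33) or 8-cell replicate 2 (-0.13). The limit of 1100 bases lies between *LSM4* (1083 bases) and *LSM1* (1164 bases, 0.63 times the mean of the other oocyte libraries). The shortest members, *LSM7* (463 bases) and *LSM5* (559 bases), were at 1.47 and 1.69 times, *EXOSC8* at 1.86 and *EXOSC7* at 0.78. The share among all tested genes under this limit is not known. The part of transcript length in these values was not tested.

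**Figure D3:**
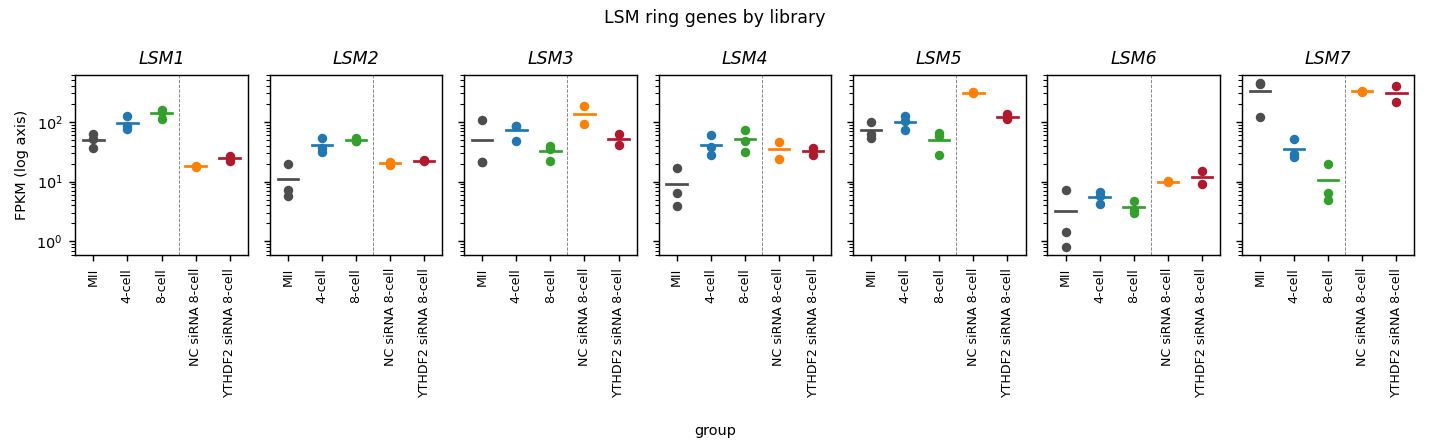
FPKM (log axis) of the 7 LSM ring genes in each library, with points for libraries, bars for group means, and a dashed line between the untreated and the injected groups, which were normalized apart. *LSM1*, *LSM2* and *LSM4* were above the oocytes in every untreated embryo library, *LSM7* went down over the 3 stages to 4.91 to 20.0 FPKM, and its injected libraries lie at 213 to 392 FPKM.

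In nonsense-mediated decay, *UPF3B* fell. It links the UPF complex to the exon junction complex, and it measured 19.5, 17.8 and 17.2 FPKM in MII, 6.91, 4.68 and 6.46 at the 4-cell and 6.34, 9.42 and 6.18 at the 8-cell stage. No embryo library reached an oocyte library. The log2 fold changes were -1.46 (SE 0.22, 1.75 below the median of all genes, adjusted p = 0.0015) and -1.22 (SE 0.22, 1.59 below, adjusted p = 0.0026), and both calls held in all alternatives. Its paralog *UPF3A* (6.41 to 9.13 FPKM in MII, 2.65 to 4.50 at the 4-cell, 3.34 to 9.02 at the 8-cell stage) and the helicase *UPF1* (2.28 to 3.38, 0.764 to 2.23 and 0.738 to 2.59 FPKM) were lower in every 4-cell library than in the oocytes but were not called (-0.94 and -0.75). Under both rescalings they were, *UPF3A* at -1.26 and -1.40 and *UPF1* at -1.02 and -1.11, and *UPF1* also at the 8-cell stage with the same FPKM sum (-1.02). With voom both were called at the 4-cell stage (-1.12 and -1.19) and *UPF1* at the 8-cell stage (-1.16). *UPF1* was also called at the 8-cell stage without 8-cell replicate 1 (-1.01). *UPF3A* was also called at the 4-cell stage with a pseudocount of 0.1 (-1.11) and without MII replicate 3 (-1.06) or 4-cell replicate 1 (-1.08). *SMG6*, the endonuclease, went from 3.83, 4.15 and 3.90 FPKM to 7.91, 8.83 and 8.54 and to 9.36, 5.76 and 11.9, above MII in every library and short of 2-fold on the scale of the test (0.92 and 0.96, adjusted p = 0.020 and 0.014). It was called at both stages with a pseudocount of 0.1 (1.07 and 1.10) and with voom (1.09 and 1.13). The bridging protein *UPF2* and the kinase *SMG1* were not called. The median change of the 6 tested genes was 0.49 below that of all genes at the 4-cell and 0.50 below at the 8-cell stage, and with no filter on low values, which adds *SMG5*, the 8-cell value turned to 0.24 above.

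The second experiment asked what the machinery did when *YTHDF2* was depleted. The antisense strands of the siRNAs, which pair with the *YTHDF2* mRNA, are shown because they define the treatment, 5′ to 3′ with bases 2 to 8 in capitals (the seed of a guide strand):
s28148: uUGCUAGCaauaucagcccaa
s28147: uGGUCUAUaguauucaugcca
*YTHDF2* itself measured 112 and 159 FPKM with NC siRNA and 8.07 and 4.47 FPKM with *YTHDF2* siRNA (log2 fold change -4.25, SE 0.43, adjusted p = 0.00037). In untreated 8-cell embryos, which were normalized apart, it measured 10.8, 16.7 and 12.5 FPKM. These lay below both NC libraries and above both knockdown libraries, and no test was made.

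Of 43 tested members, 1 was higher and 7 were lower in *YTHDF2* knockdown embryos than in controls, against 9.48% and 15.3% of all 11004 tested genes. By the adjusted p the counts were 1 and 3 (all genes 2.06% and 5.92%). These adjusted calls depended on the setting. No member passed under median-ratio rescaling, with no filter, without NC replicate 2 or without *YTHDF2* siRNA replicate 2. Under the replicate block *EXOSC5* passed, and without NC replicate 1 *EXOSC4*, which is not among the 4. Without *YTHDF2* siRNA replicate 1 *CNOT8* was higher and *EDC3*, *EXOSC1*, *EXOSC4*, *EXOSC5* and *LSM3* were lower by the adjusted p. *CNOT10* and *LSM5* did not pass the adjusted p there, at log2 fold changes of 1.37 and -1.17. With the replicate numbers crossed in the block, a setting chosen after seeing the data, 1 was higher and 7 were lower. Over all genes 227 higher and 651 lower adjusted calls became 68 and 336 under median-ratio rescaling and 0 and 0 with no filter. By the unadjusted rule with all 4 libraries the higher gene was *CNOT10*, and the lower ones were *DCP1A*, *EDC3*, *EXOSC1*, *EXOSC4*, *EXOSC5*, *LSM3* and *LSM5*. Without overlap between the libraries, 14 members were higher and 13 lower (30.3% and 30.7% of all genes). With 2 libraries in each group, leaving 1 out moved the count of called members between 5 and 12, on fits where the lone library is assumed to vary like the other group. The count was 5 without NC replicate 2 and without *YTHDF2* siRNA replicate 2, 9 without NC replicate 1, and 12 without *YTHDF2* siRNA replicate 1. The median of all tested genes was at 0.0054, and by the unadjusted rule both rescalings again gave 1 higher and 7 lower.

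Of the CCR4-NOT and other deadenylase genes most had higher values. *CNOT10* measured 33.8 and 19.9 FPKM with NC and 84.2 and 68.8 FPKM with *YTHDF2* siRNA, without overlap, and rose by a log2 fold change of 1.52 (SE 0.42, adjusted p = 0.041), an unadjusted call kept in all 10 alternatives. Its adjusted p in them ran from 0.0028 to 0.26, and 2 of the 10 kept the adjusted call. Of CCR4-NOT 8 of 11 lay above 0 (median 0.43 above that of all genes), and of PAN2, PAN3 and PARN all 3 (median 0.69 above). Without *YTHDF2* siRNA replicate 2 the CCR4-NOT median came to 0.060. *CNOT6L* measured 14.2 and 12.6 FPKM in controls and 22.2 and 30.2 FPKM in knockdown embryos, again apart (0.90, SE 0.42, adjusted p = 0.16), and was called without *YTHDF2* siRNA replicate 1 (1.12). *CNOT8*, the paralog of *CNOT7*, measured 10.3 and 13 against 13.1 and 38.4 FPKM, without overlap (0.91, SE 0.50, adjusted p = 0.23). It was called without *YTHDF2* siRNA replicate 1 (1.65, adjusted p = 0.021), where the lone knockdown library is the higher one. The other CCR4-type gene, *CNOT6*, was level at 8.07 and 7.90 against 8.07 and 9.02 FPKM (0.086, adjusted p = 0.91).

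*CNOT1* measured 32.8 and 31.8 FPKM in controls and 28.8 and 18.2 FPKM in knockdown embryos, lower in both but not called (-0.47, SE 0.42, adjusted p = 0.46). *CNOT11*, the partner of CNOT10, was at 21.8 and 25.6 against 15.9 and 19.9 FPKM (-0.39, SE 0.41, adjusted p = 0.55). Neither was called in any alternative. *CNOT2* (23.6 and 26.7 against 26.9 and 43.4 FPKM, 0.43, adjusted p = 0.51) and *CNOT7* (112 and 106 against 114 and 195 FPKM, 0.45, adjusted p = 0.47) were higher in each knockdown library without being called.

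The decapping genes lay on the lower side, all 3 tested ones. *DCP1A* measured 35.3 and 42.0 FPKM in controls and 19.5 and 15.2 FPKM in knockdown embryos, apart from each other (-1.12, SE 0.41, adjusted p = 0.096). *DCP2* was at 72.6 and 127 against 59.6 and 41.6 FPKM, also apart (-0.93, SE 0.42, adjusted p = 0.16), and *EDC3* at 10.9 and 20.9 against 8.25 and 3.11 FPKM (-1.39, SE 0.50, adjusted p = 0.089). *DCP1A* and *EDC3* lost the call without NC replicate 2 (-0.99 and -0.95) or *YTHDF2* siRNA replicate 2 (-0.95 and -0.80). *DCP2* gained one without NC replicate 1 (-1.33) or *YTHDF2* siRNA replicate 1 (-1.19). None of the 3 passed the adjusted p. The 5′-3′ exonucleases *XRN1* (12.3 and 9.53 against 14.9 and 13.5 FPKM) and *XRN2* (36.1 and 42.3 against 52.0 and 45.3 FPKM) were higher in both knockdown libraries and not called.

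The exosome showed lower values in 8 of 10 genes (median 0.71 below that of all genes). The ring protein *EXOSC6*, which is not among the 10, was higher and not called (0.94, SE 0.41, adjusted p = 0.15). *EXOSC1*, a cap protein, fell from 608 and 640.0 to 300.2 and 156 FPKM (-1.52, SE 0.40, adjusted p = 0.035), and the ring protein *EXOSC5* from 32.0 and 29.2 to 12.9 and 4.39 FPKM (-1.87, SE 0.48, adjusted p = 0.032). Both unadjusted calls held in all 10 alternatives, while the adjusted calls held in 4 and 5 of them (adjusted p up to 0.28 and 0.22). The ring protein *EXOSC4* was called on wide values, 32.3 and 129 against 36.6 and 9.70 FPKM, which overlapped (-1.72, SE 0.63, adjusted p = 0.098), and it lost the call without NC replicate 2 (-0.73) or *YTHDF2* siRNA replicate 2 (-0.81) and when no filter on low values was set. The ring proteins were not alike, since *EXOSC8* measured 219 and 142 FPKM in controls and 187 and 309 FPKM in knockdown embryos (0.44, adjusted p = 0.49). The nuclease *EXOSC10* was at 51.7 and 43.9 against 34.8 and 23.1 FPKM (-0.73, adjusted p = 0.25), and *DIS3* at 27.2 and 21.6 against 29.8 and 25.2 FPKM (0.17, adjusted p = 0.80). Without *EXOSC1* the exosome genes summed to 616 and 574 FPKM with NC and 454 and 513 FPKM with *YTHDF2* siRNA.

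In the LSM ring *LSM5* fell from 299 and 313 to 110.4 and 135 FPKM (-1.32, SE 0.37, adjusted p = 0.045). The unadjusted call held in all 10 alternatives and the adjusted call in 1 of them (adjusted p 0.0042 to 0.17). *LSM3* was at 181 and 92.3 FPKM in controls and 62.0 and 41.4 FPKM in knockdown embryos, without overlap (-1.34, SE 0.44, adjusted p = 0.070), and lost the call without NC replicate 1 (-0.85). Of the genes that rose over the stages, *LSM1* (18.4 and 17.6 against 27.1 and 22.1 FPKM, 0.43) and *LSM2* (21.1 and 19.3 against 21.9 and 23.1 FPKM, 0.15) were higher in each knockdown library and not called. *LSM4* overlapped between the groups (46.5 and 24.1 against 28.1 and 36.6 FPKM, -0.061). *LSM7* was at 335 and 321 against 213 and 392 FPKM (-0.18). No gene of nonsense-mediated decay was called, and 3 of 7 lay above 0. *SMG6* measured 2.82 and 2.0 FPKM in controls and 5.56 and 5.43 FPKM in knockdown embryos, without overlap (0.94, SE 0.42, adjusted p = 0.15), and was called with a pseudocount of 0.1 (1.18, adjusted p = 0.15).

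**Figure D4:**
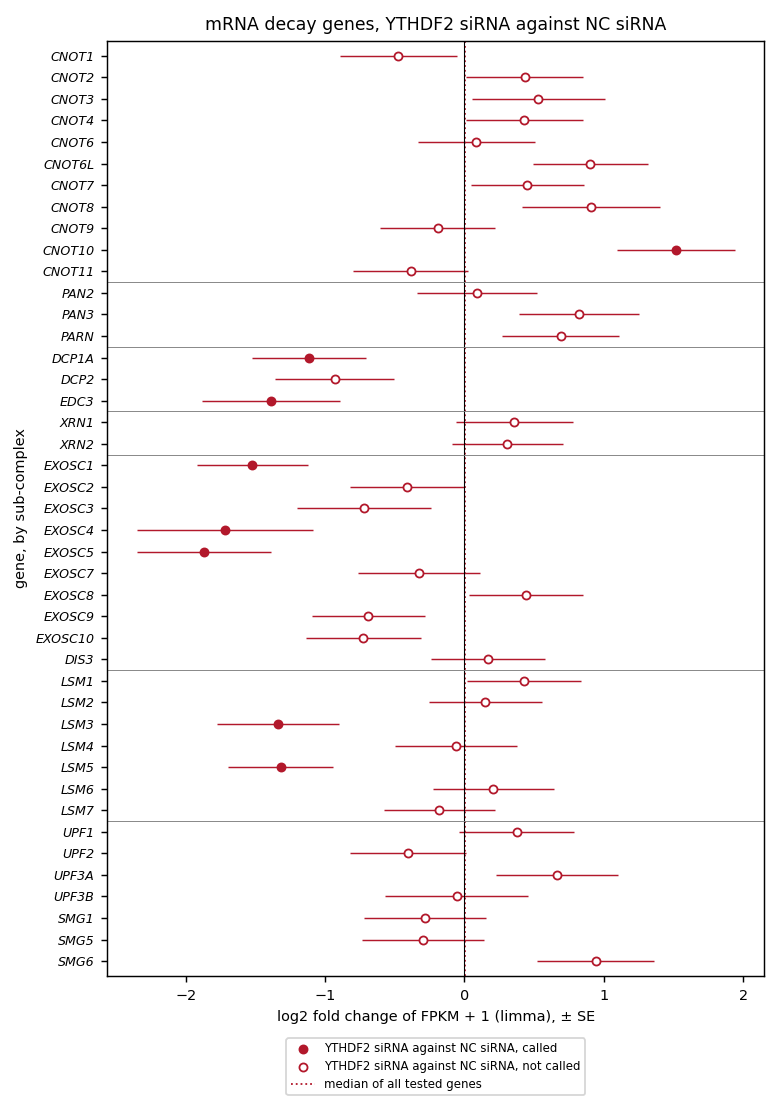
Log2 fold change (limma, on FPKM + 1) of the 43 tested genes in *YTHDF2* siRNA against NC siRNA 8-cell stage embryos, 2 libraries each, with bars for the SE, filled points for called genes and a dotted line for the median of all tested genes (0.0054). Of CCR4-NOT 8 of 11 genes and the 3 other deadenylase genes lie to the right, with *CNOT10* at 1.52, while the decapping genes (-0.93 to -1.39) and 8 of 10 exosome genes lie to the left.

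The control embryos themselves differed from the untreated embryos of the same stage. These tables were normalized apart and come from separate experiments, so injection, experiment and normalization cannot be told apart, and no test was made. Of 43 members with an untreated 8-cell mean of at least 1 FPKM, the NC mean was over 5 times the untreated mean in 9 (10.7% of all 9405 such genes), over 2 times in 14 (23.2%) and more than 2 times lower in 10 (40.3%). *EXOSC1* lay at 608 and 640.0 FPKM against 2.74 to 6.76 in untreated embryos (152-fold), *LSM7* at 335 and 321 against 4.91 to 20.0 (31.3-fold), *EXOSC4* at 32.3 and 129 against 2.25 to 5.06 (23.7-fold), and *DCP2* at 72.6 and 127 against 5.28 to 9.34 (14.6-fold). *EXOSC5*, *EXOSC10*, *EXOSC8*, *EDC3* and *LSM5* made up the rest of the 9. For none of these did the libraries overlap. Lower in the controls were *LSM1* (18.4 and 17.6 against 111 to 159 FPKM, 7.71-fold), *PAN3* (7.77 and 7.45 against 35.2 to 60.9, 6.10-fold), *CNOT6L* (14.2 and 12.6 against 43.5 to 69.5, 4.24-fold) and *PARN* (20.8 and 15.2 against 48.1 to 84.1, 3.75-fold).

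Of the 7 exosome genes over 2 times higher in NC embryos all but *EXOSC3* and *EXOSC9* were over 5 times higher, while of CCR4-NOT none was over 2 times higher and 5 (*CNOT6*, *CNOT6L*, *CNOT7*, *CNOT8* and *CNOT10*) were more than 2 times lower. These are counts of few genes, to be read beside the shares of all genes above (23.2% over 2 times and 10.7% over 5 times higher, 40.3% more than 2 times lower). The 45 genes summed to 1304 to 1441 FPKM in untreated 8-cell embryos, 2713 and 2648 in NC and 1900 and 2021 in *YTHDF2* siRNA embryos. This comparison and that of the knockdown share the NC libraries. Members called lower in the knockdown had NC means above the untreated means, 1.36-fold for *DCP1A* and 4.24-fold (*LSM3*) to 152-fold (*EXOSC1*) for the others. *CNOT10*, called higher, had an NC mean 2.76-fold below. *LSM7* and *EXOSC8*, 31.3- and 8.75-fold above, were not called. The part of the NC levels in the knockdown results was not tested.

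**Figure D5:**
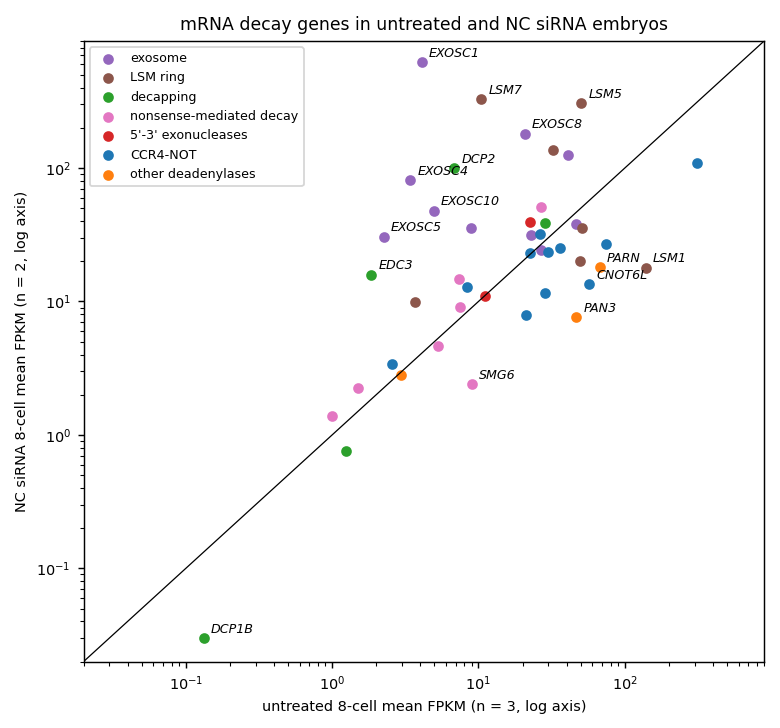
Mean FPKM of the 45 genes in NC siRNA (n = 2) against untreated (n = 3) 8-cell stage embryos on log axes, coloured by sub-complex, with the line of equal values and names beside the genes farthest from it. *EXOSC1*, *LSM7*, *EXOSC4* and *DCP2* lie 14.6- to 152-fold above the line and *LSM1* and *PAN3* 7.71- and 6.10-fold below it.

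A list of 29 further genes of the same pathways was read beside the members. Of 23 tested, 8 were higher and 1 lower at the 4-cell stage (all genes 16.7% and 6.06%), 7 higher and 4 lower at the 8-cell stage (19.8% and 8.14%), and 1 higher and 2 lower from the 4- to the 8-cell stage (4.55% and 4.28%). Median-ratio rescaling gave 4 higher and 2 lower, then 3 and 5, and the same FPKM sum 3 and 3, then 3 and 5, in the comparisons with MII. Of 26 tested in the injected embryos none was higher and 5 were lower (9.48% and 15.3%), 1 of them by the adjusted p. No gene of the list passed the adjusted p under median-ratio rescaling, with no filter, under the replicate block, or without NC replicate 1, NC replicate 2 or *YTHDF2* siRNA replicate 2, while 5 were lower by it without *YTHDF2* siRNA replicate 1 and 4 with the crossed block. Without *YTHDF2* siRNA replicate 2 the unadjusted lower count was 1, and without NC replicate 2 it was 3. The eRF1 gene *ETF1*, which ends translation, rose from 0.927, 2.70 and 0.978 FPKM in MII to 13.3, 11.1 and 10.8 at the 4-cell and 12.2, 42.1 and 13.6 at the 8-cell stage (log2 fold change 2.39 and 3.07, adjusted p = 0.0038 and 0.00083). *C1D*, a cofactor of the nuclear exosome, rose from 1.46, 1.5 and 1.80 to 10.3, 10.7 and 12.7 and to 17.7, 86.0 and 31.1 FPKM (2.24 and 3.85, adjusted p = 0.0058 and 0.00030). Its step between the embryo stages was 1.61 (adjusted p = 0.062). *GSPT1*, the partner of eRF1, rose from 12.4, 14.1 and 8.66 to 44.7, 29.6 and 33.4 FPKM at the 4-cell stage (1.54, adjusted p = 0.0016).

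*LSM8*, which takes the place of LSM1 in the nuclear ring, fell from 17.2, 17.3 and 11.3 FPKM in MII to 2.23, 9.77 and 2.56 at the 8-cell stage (-1.68, SE 0.43, adjusted p = 0.013), while *LSM1* rose. Between the embryo stages the furthest called falls were those of *MAGOH*, of the exon junction complex (3602, 1750.5 and 2352 to 490.5, 879 and 761 FPKM, -1.83, adjusted p = 0.010), and of *MTREX* (listed as *SKIV2L2*), the helicase of the nuclear exosome (27.7, 25.1 and 21.8 to 9.76, 12.3 and 11.8 FPKM, -1.08, adjusted p = 0.025, not called with the same FPKM sum, -0.96). In the knockdown the furthest were *DIS3L*, a cytoplasmic exosome nuclease (99.0 and 156 against 46.3 and 34.6 FPKM, -1.61, adjusted p = 0.031), *NUDT16*, a decapping enzyme (7.69 and 8.10 against 3.28 and 1.37 FPKM, -1.48, adjusted p = 0.054), and *DDX6*, a helicase that activates decapping (13.9 and 12.5 against 6.47 and 3.10 FPKM, -1.36, adjusted p = 0.072). None of these 3 overlapped between the groups.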

How the data were processed

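The 13 libraries were grouped by the labels into 3 MII, 3 4-cell, 3 8-cell, 2 NC siRNA and 2 *YTHDF2* siRNA libraries. Per the study's methods, Smart-seq2 reads were mapped by the authors with HISAT2 on assembly ARS1, and unique alignments were counted with HTSeq. The deposited tables hold FPKM, normalized by the authors per library. No column of values was left unused. The 46 names on several rows of a table were dropped. All 45 members had a symbol in RefSeq's table for ARS1.2, and no coordinates or sequences of them were used.

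The test was limma (3.58.1, run under R 4.3.3; linear fits, moderated with an intensity trend, two-sided) of log2(FPKM + 1), for genes averaging 1 FPKM or more over the libraries fitted, the 9 untreated libraries in one fit and the 4 injected in another. The fold scale understates changes of low genes. A call needs an unadjusted p under 0.05 and over 2-fold, the rule of the study's methods. Adjusted p are Benjamini-Hochberg over all tested genes. No count test was a main result, since FPKM are not counts. Whole fragments behind untreated values were recovered from the FPKM steps (tolerance 0.02) for 9089 of 9090 tested genes and entered limma's voom as an alternative. The injected values, rounded to 2 decimals, gave no depth. Replicates are separate libraries, and nothing says that they came from separate cultures, so p-values measure the spread between libraries, which may be technical. The fits were tested on simulated data. The members, lists and tests were chosen with earlier results of these data known. Values in every library are given for called members and for *CNOT1*, *CNOT2*, *CNOT6*, *CNOT6L*, *CNOT7*, *CNOT10*, *CNOT11*, *DCP1A* and *DCP2*, and of the further 29 genes for the 3 called with the largest change per comparison. Figures used matplotlib 3.10.9.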

Additional observations from a re-analysis of the deposited data

How the results depend on the processing

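The counts of called members were compared with other pseudocounts, filters, scalings, call rules, a replicate block, fits without each library and, for untreated libraries, voom on fragments, which the injected libraries without a depth did not allow. Of the 35 unadjusted calls, 17 held in every alternative. Under rescaling *CNOT2* (-0.041 with the same FPKM sum) and *CNOT6L* (-0.19 with median-ratio rescaling, -0.24 with the same FPKM sum) changed sign in 8-cell embryos, and *CNOT10* ran from -0.30 to 0.096 when 1 library was left out, with the rise without 8-cell replicate 2. With the adjusted p in the rule, with or without the fold, the calls from the 4- to the 8-cell stage went from 3 to 1 and in the knockdown from 8 to 4. Leaving out 1 library gave 1 to 3 and 5 to 12 calls by the unadjusted rule, and 0 to 2 and 0 to 6 by the adjusted rule.

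Median changes relative to all genes moved beyond the replicate spread mostly when no filter was set, a setting that adds members and genes at low values, with the median of all genes then at 0.023 and 0.095 against MII. The cause was not tested. At the 4-cell stage CCR4-NOT came to 0.10, the exonucleases to 0.041, the exosome to 0.0085 and nonsense-mediated decay to -0.083. At the 8-cell stage they came to -0.022, 0.020, -0.073 and 0.24, and the 45 genes to 0.034. Nonsense-mediated decay was at -0.74 with a pseudocount of 0.1 and -0.75 with voom at the 4-cell stage. Without single libraries the exosome spanned -0.60 to -0.17 in 8-cell embryos, and the LSM ring 0.29 to 1.28 in 4-cell and -0.30 to 0.71 in 8-cell embryos. In the knockdown the 45 genes, at -0.062 with all 4 libraries, ran from 0.0040 to 0.067, CCR4-NOT, at 0.43 with all 4, from 0.060 to 0.35, the exonucleases from 0.22 to 0.38 and nonsense-mediated decay from -0.51 to 0.37.

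Whether the shared replicate numbers pair the samples is not known. Deviations of same-numbered libraries correlated by -0.51 to 0.20 and those of other numbers by -0.37 to 0.51. With 2 libraries in each injected group these values must mirror each other (-0.15 and 0.15), so they cannot decide it there. The replicate block gave 12, 12, 3 and 8 members called by the unadjusted rule, as without it, and lowered the adjusted calls in the knockdown from 4 to 1. With the 2 numbers of the injected groups crossed, chosen after seeing the data, the count was 8 by the unadjusted and 8 by the adjusted rule. Depth was known for the untreated libraries, where members under 100 fragments, among them *LSM7* in 2 of 3 8-cell libraries, carry the widest counting error.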
